A study of Xenopus laevis with 24 samples.

Results

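Foregut explants of Xenopus laevis in which retinoic acid receptors were blocked with BMS493 were compared directly with explants in which rfx6 was knocked down, both cultured to stage NF25. The comparison took the 3 BMS493 libraries and the 3 rfx6 morphant libraries of NF25, 6 of the 24 libraries of the series, over all identifiers in the count table, and no control library entered the test. Mesoderm and endoderm of the foregut were dissected together at NF15 from wild-type embryos of the stock NXR_0031 and kept in culture at 15 °C, with NF25 reached after 16 hours. Each library was made from a pool of 8 explants, and the submitters describe the 3 libraries of a group as biological replicates. BMS493 explants received 250 nM of the compound directly after dissection. Morphants came from embryos injected at the 2-cell stage with 2.5 ng of a translation-blocking rfx6 morpholino. Control explants came from embryos given the same amount of an oligo with 5 mismatched bases and were kept in 0.1% DMSO. The labels do not say whether BMS493 explants carried the mismatch oligo or whether morphants were kept in DMSO, and they name no parents, so these differences cannot be told apart from the treatments.

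BMS493 is an inverse agonist of the retinoic acid receptors, nuclear receptors that hold target genes silent without ligand and activate them when retinoic acid binds. Retinoic acid sets anterior and posterior identity in the foregut of vertebrates and is needed there for the pancreas. Rfx6 is a winged-helix transcription factor of the gut endoderm that is required in mouse and human for pancreatic endocrine cells. The direct contrast asks where the state left by receptor block differs from the state left by rfx6 knockdown. The files give numbered identifiers without gene symbols, and 0 of them matched the RefSeq gene table used here. No identifier is therefore given a gene name or a role, and rfx6, retinoic acid response genes and markers of foregut or other tissues were not analysed here. A translation-blocking morpholino acts on protein synthesis, so the level of the rfx6 transcript would not in any case check the knockdown. In such bulk samples fewer cells of a type and less RNA per cell cannot be told apart.

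The 6 libraries held 23342140 to 28229445 estimated counts, with 25345766 to 28229445 in BMS493 explants and 23342140 to 27355645 in morphants. Pearson's r of log2 CPM, the counts scaled to library size, between libraries of 1 treatment was 0.987 to 0.990 at NF25, against 0.955 to 0.956 between BMS493 and morphant libraries. BMS493 libraries correlated with control libraries at 0.969 to 0.972 and morphant libraries at 0.962 to 0.964. The 2 treatments thus lay farther from each other than either lay from the control by this measure. The most abundant feature, a pair of identifiers with the same count in every library, took 2.21%, 2.38% and 5.09% of the counts in BMS493 libraries, against 1.63%, 5.49% and 2.93% in morphant libraries. These shares overlap between the groups.

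At NF25 the 2 treatments differed across a large part of the transcriptome. Of 24407 identifiers tested, 10544 (43.2%) were called at an adjusted p under 0.05 with edgeR's quasi-likelihood test and Benjamini-Hochberg adjustment. BMS493 explants were higher at 5212 (21.4%) and lower at 5332 (21.8%), so that the directions were nearly balanced. Which direction held more calls depended on the scaling, since scaling by total library size gave 5787 higher and 4129 lower. Changes of at least 2-fold were fewer: 1124 identifiers (4.61%) were called and at least 2-fold higher in BMS493, and 1213 (4.97%) at least 2-fold lower. The 3 BMS493 libraries all lay above the 3 morphant libraries for 1091 of the 1124, and all below them for 1189 of the 1213. Since those lists were chosen by the test, this describes them, and the groups also did not overlap at 50.9% of all identifiers tested.

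The balance was lost among the larger changes. At 4-fold or more, 195 identifiers were higher and 441 lower in BMS493 explants. At 8-fold or more, 49 were higher and 186 lower, which makes 79.1% of them lower. At 16-fold the counts were 14 and 87, and at 32-fold they were 6 and 33. Leaving out any single library enlarged this tail at 4-fold and at 8-fold. The count at least 4-fold higher became 211 to 298 and the count at least 8-fold higher 54 to 84. Without morphant replicate 1, 298 identifiers were at least 4-fold higher and 84 at least 8-fold higher, and without morphant replicate 2, 80 were at least 8-fold higher. Over all single-library omissions the 4-fold lower count was 477 to 549 and the 8-fold lower count 198 to 237, in each case above the matching higher count. Those fits tested more identifiers, since the filter asks for fewer libraries.

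**Figure D1:**
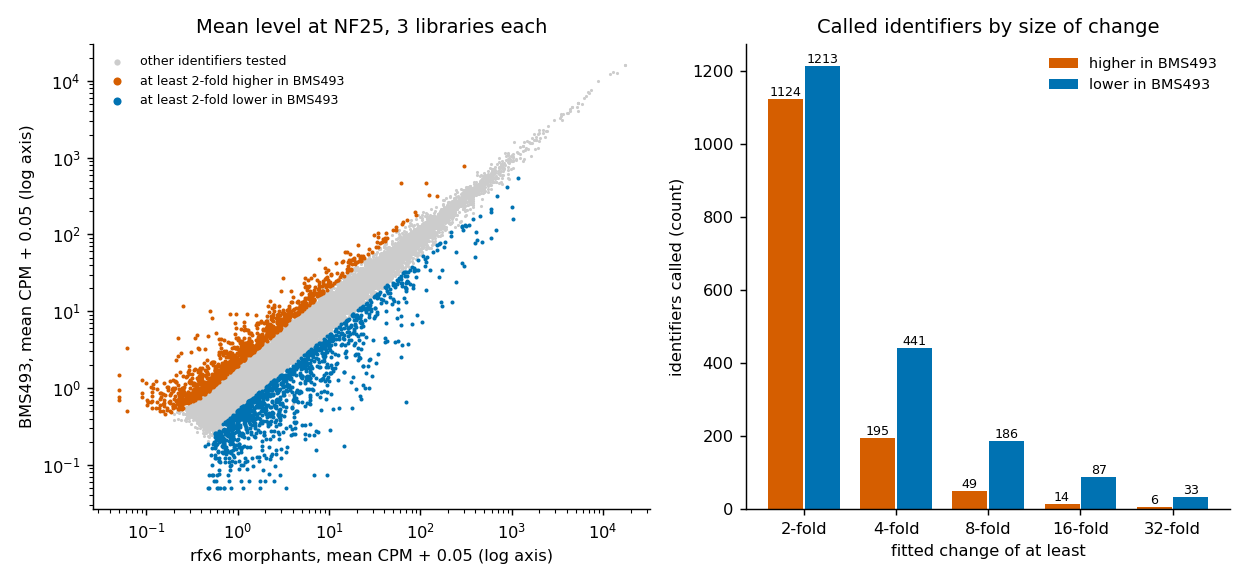
Left, mean level of each tested identifier at NF25 in BMS493 libraries (vertical) against rfx6 morphant libraries (horizontal), as CPM + 0.05 on log axes, 3 libraries each, with identifiers called and at least 2-fold higher or lower in BMS493 coloured. Right, number of called identifiers that changed at least by each fold, where 1124 against 1213 at 2-fold becomes 49 higher against 186 lower at 8-fold.

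The lists of 2-fold changes were made mostly of weakly expressed identifiers. The median level of the 1124 higher identifiers was 2.70 CPM in BMS493 explants and 0.909 CPM in morphants, and that of the 1213 lower ones was 0.725 CPM in BMS493 and 2.85 CPM in morphants. All identifiers tested had medians of 9.06 CPM in BMS493 and 9.04 CPM in morphants. Below a mean of 1 CPM, 371 of 3275 identifiers were at least 2-fold higher and 407 lower. Between 1 and 10 CPM it was 598 and 562 of 9435, and between 10 and 100 CPM 146 and 208 of 10116. Lower identifiers were thus in excess below 1 CPM and between 10 and 100 CPM, and higher ones between 1 and 10 CPM. These splits rest on the main scaling and were not tested. Over all levels, total library size gave 1272 identifiers at least 2-fold higher and 1135 lower. The excess of lower identifiers was largest in proportion above 100 CPM, with 9 of 1581 identifiers at least 2-fold higher and 36 lower. The share called at any size ran the other way, from 25.3% below 1 CPM to 56.5% above 100 CPM.

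Summed over identifiers and scaled over all 24 libraries, the 2-fold higher list held 12733.4 ± 65.2 CPM in BMS493 explants and 4821.8 ± 24.7 CPM in morphants (SD, n = 3 each). The 2-fold lower list held 9064.8 ± 90.9 CPM in BMS493 and 29597.9 ± 200.1 CPM in morphants. These sums describe what the choice of the lists fixed. Control libraries held 8085.3 ± 32.2 CPM of the higher list and 16620.0 ± 82.0 CPM of the lower list, between both treatments in each case. The choice did not use the control libraries. A list chosen for a difference between 2 groups nevertheless tends to place another group between them, so this place is a description too.

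Where the control lay differed between the lists. Each treatment was tested against the 3 NF25 controls in one fit of 9 libraries. Both comparisons use the same controls and share libraries with the choice of the lists, so their values stand side by side as a description. Of the 1122 tested identifiers of the higher list, 652 were called higher and 25 lower in BMS493 than in control, where the shares over all identifiers tested were 16.0% higher and 15.0% lower. In morphants against control, 27 were called higher and 577 lower, with 18.5% higher and 17.2% lower over all identifiers tested. The median log2 fold change was 0.73 in BMS493 and -0.73 in morphants, so the control lay midway. The lower list was not midway. Of its 1200 tested identifiers, 116 were called higher and 465 lower in BMS493 than in control, against 819 higher and 47 lower in morphants, with medians of -0.52 and 1.09.

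The largest differences were counted in the same way. Of the 49 identifiers at least 8-fold higher in BMS493 than in morphants, 42 were called and at least 2-fold above control in BMS493 (3.42% of all identifiers tested), and 14 were called and at least 2-fold below control in morphants (2.50% of all). Of the 183 tested identifiers at least 8-fold lower, 54 were called and at least 2-fold below control in BMS493 (2.22% of all), and 145 were called and at least 2-fold above control in morphants (4.09% of all). Most tested identifiers in the tail on the lower side were thus above control in morphants. The median log2 fold changes against control were 2.40 in BMS493 and -1.42 in morphants for the 49, of which 34 were not called in morphants. For the 183 the medians were -0.55 in BMS493 and 3.71 in morphants. The tails were chosen on the same BMS493 and morphant libraries, which favours these values, so they are a description.

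The identifier with the largest fold among the higher ones was XBXL10_1g41015. It had 1.63, 1.32 and 1.71 CPM in the BMS493 libraries, 0 CPM in all 3 morphant libraries and 0 CPM in all 3 controls. With 118 counts in BMS493 explants and none in morphants, it was at least 36.1-fold higher, against a floor of 3 counts over the group, with an adjusted p of 1.24e-09 in edgeR's test. Its level at NF25 was small beside its later course. At NF33 it averaged 340.1 ± 20.3 CPM in BMS493, 79.7 ± 3.4 CPM in morphants and 257.8 ± 5.8 CPM in control explants (mean ± SD of 3 libraries, as below), and at NF38 628.9 ± 28.0 CPM in morphants and 303.7 ± 6.4 CPM in controls. XBXL10_1g41015 was therefore found early in BMS493 explants, higher in BMS493 than in morphants at both stages, and above control in morphants by NF38.

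XBXL10_1g12429 had the largest difference in mean CPM among the higher identifiers. Its levels were 837.0, 860.2 and 857.4 CPM in BMS493, 329.1, 330.2 and 332.1 CPM in morphants and 679.1, 676.0 and 675.7 CPM in controls. The 3 groups did not overlap. The log2 fold change of BMS493 over morphants was 1.37 (SE 0.05, adjusted p = 2.35e-21, edgeR), and the larger step from control was on the morphant side. At NF33 the levels had dropped to 38.5 ± 3.7 CPM in BMS493, 32.3 ± 2.5 CPM in morphants and 48.5 ± 0.6 CPM in controls. There the log2 fold change of XBXL10_1g12429 was 0.25 (SE 0.06, adjusted p = 4.88e-04, edgeR), a call that limma on TPM did not make (adjusted p = 0.15 with either pseudocount).

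Among the lower identifiers the largest fold belonged to XBXL10_1g36979, with 0 CPM in all 3 BMS493 libraries, 3.67, 3.21 and 4.11 CPM in morphants and 1.501, 1.62 and 3.01 CPM in controls. It had no count in BMS493 and 256 in morphants, which is at least 92.2-fold lower in BMS493 (adjusted p = 2.94e-14, edgeR). At NF33 XBXL10_1g36979 was again at 0 CPM in all BMS493 libraries and at 2.35 ± 0.32 CPM in morphants, while it was at 0 CPM in all 3 controls of that stage. At NF38 it had 1.59 ± 0.54 CPM in morphants and 1.08 ± 0.22 CPM in controls.

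XBXL10_1g42769 had the largest difference in CPM on the lower side. Its levels were 174.0, 172.7 and 176.5 CPM in BMS493, 1073.9, 1121.1 and 1187.7 CPM in morphants and 535.9, 532.5 and 511.5 CPM in controls, again with no overlap between groups. The log2 fold change was -2.69 (SE 0.06, adjusted p = 9e-29, edgeR), and control lay between the treatments. At NF33 XBXL10_1g42769 stood at 106.9 ± 1.5 CPM in BMS493, 310.4 ± 10.2 CPM in morphants and 98.4 ± 2.1 CPM in controls. There BMS493 lay a little above control without overlap, at 105.7, 108.5 and 106.5 CPM against 96.8, 100.8 and 97.5 CPM, and morphants lay far above both. BMS493 was not tested against control at NF33. The log2 fold change of BMS493 over morphants was -1.54 (SE 0.04, adjusted p = 1.68e-46, edgeR).

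**Figure D2:**
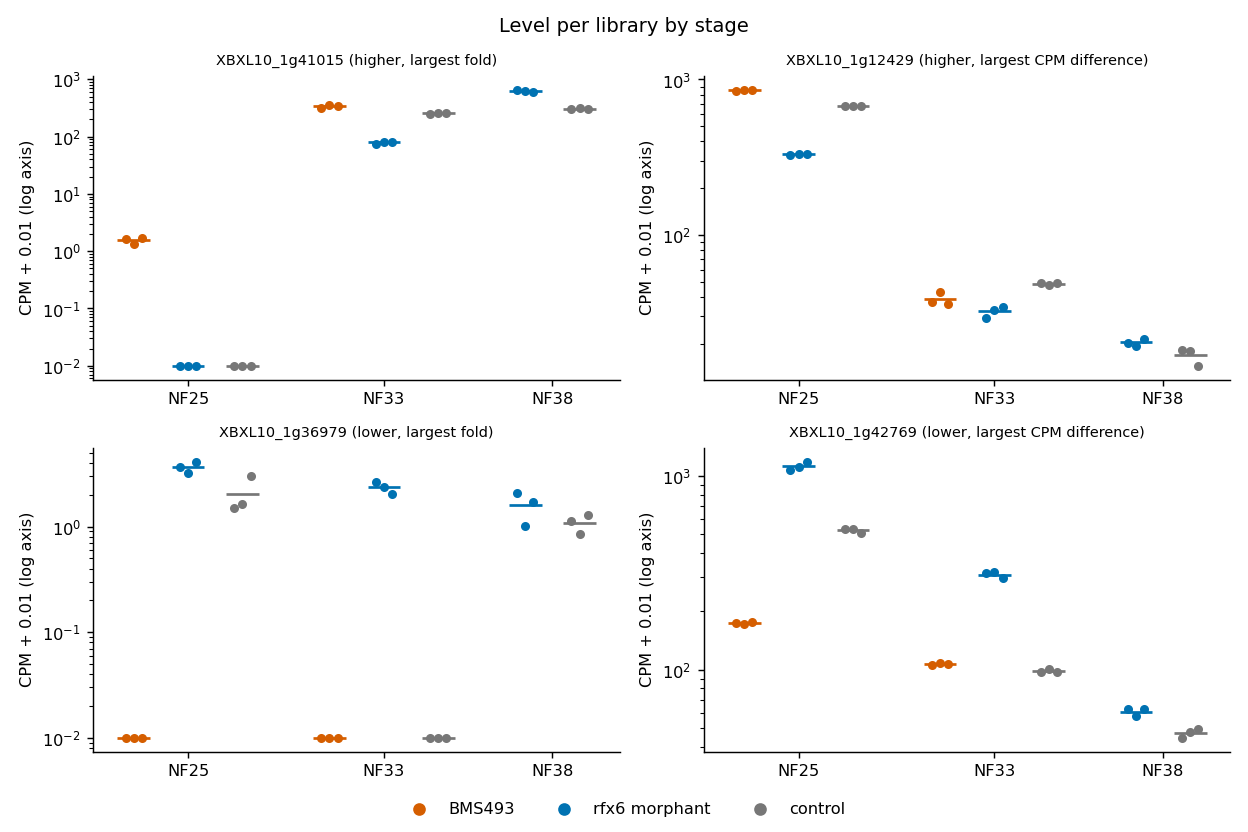
Level of 4 identifiers in every library of BMS493, rfx6 morphant and control explants at NF25, NF33 and NF38 (no BMS493 library at NF38), as CPM + 0.01 on log axes, with points for libraries and a line at each group mean. Both identifiers chosen for fold were at 0 in 1 treatment at NF25, and both chosen for their difference in CPM had tight libraries with control between the treatments.

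Few differences were of the kind where 1 treatment had no count at all. Among identifiers tested, 4 had no count in the 3 morphant libraries and 11 had none in the 3 BMS493 libraries. The 4 held a median of 66 counts over the BMS493 libraries, and 1 of them, XBXL10_1g41015, was also at 0 in the NF25 controls. The 11 held a median of 50 counts over the morphant libraries, and 1 of them was at 0 in those controls. By NF33 all 4 had counts in both treatments. Of the 11, 9 had counts in BMS493 explants by then. Most of these identifiers thus had counts in both treatments a stage later, though some had very few. XBXL10_1g38183, for example, averaged 0.013 CPM in BMS493 and 0.023 CPM in morphants at NF33.

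Identifiers of the lower list tended to carry consecutive numbers. What the numbering stands for is not given in the files, and consecutive identifiers are treated here only as neighbours in number. Of 818 lower identifiers whose next number was also tested, the next was at least 2-fold lower in 159 cases (19.4%), against 4.80% over all identifiers tested. It was at least 2-fold higher in 23 cases (2.81%). The higher list showed this less, with 64 of 672 next numbers at least 2-fold higher (9.52%, against 4.18% over all). There were 16 runs of 4 or more consecutive numbers that were at least 2-fold changed in the same direction, of which 15, with 93 identifiers, were lower in BMS493 and 1 was higher. Some lower runs were parted from the next by a single number, so the 15 are not all separate stretches. Leaving out single libraries gave 14 to 18 lower runs and 1 to 3 higher runs. Reads that map to several similar sequences are divided among them by the counting method, and the part of this in the runs was not tested.

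Within the runs, morphants stood above control at most places, while the side of control on which BMS493 explants stood differed between runs. BMS493 means lay above control at all 8 places of a run of 8 and at 0 places of another run of 8. Some other runs were mixed. Of the 93 identifiers, 86 had a morphant mean above the control mean and 45 had a BMS493 mean above it. The choice of the runs favours a morphant mean above control and a BMS493 mean below it, so these counts are a description. By the stricter count of calls, 819 of 1200 tested identifiers of the whole lower list were above control in morphants and 116 in BMS493. Over all identifiers tested, 18.5% were called above control in morphants and 16.0% in BMS493. A run of 9 was mixed, with 6 BMS493 means above control. The identifier at place 1 averaged 0.411 ± 0.028 CPM in BMS493, 2.51 ± 0.45 CPM in morphants and 2.38 ± 0.26 CPM in controls, so that morphants lay within their spread of the controls and BMS493 was low. The one at place 8 averaged 2.22 ± 0.37 CPM in BMS493, 12.9 ± 1.6 CPM in morphants and 0.512 ± 0.10 CPM in controls, so that both treatments were above control and morphants farther. In a run of 8 with higher levels, control lay between the treatments at every place. The one at place 6, the most abundant in morphants and controls, averaged 124.9 ± 3.4 CPM in BMS493, 741.6 ± 11.0 CPM in morphants and 396.3 ± 6.4 CPM in controls.

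At NF33, in other libraries, 60 of the 90 run identifiers that were tested were again called lower in BMS493 and 8 were called higher, and 31 were called and at least 2-fold lower. Over all identifiers tested at both stages, 28.5% were called lower, 24.2% higher and 5.16% at least 2-fold lower. A run of 5 held 4 of the 8 that turned. At NF25 the identifier at place 3 averaged 0.522 ± 0.20 CPM in BMS493, 11.9 ± 0.58 CPM in morphants and 0.642 ± 0.66 CPM in controls. At NF33 the same identifier averaged 120.5 ± 27.9 CPM in BMS493, 27.4 ± 3.1 CPM in morphants and 0.818 ± 0.46 CPM in controls, and at NF38 130.9 ± 9.9 CPM in morphants and 27.1 ± 1.0 CPM in controls. Morphants held the higher level at all 5 places at NF25, and BMS493 explants at 4 of the 5 at NF33.

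**Figure D3:**
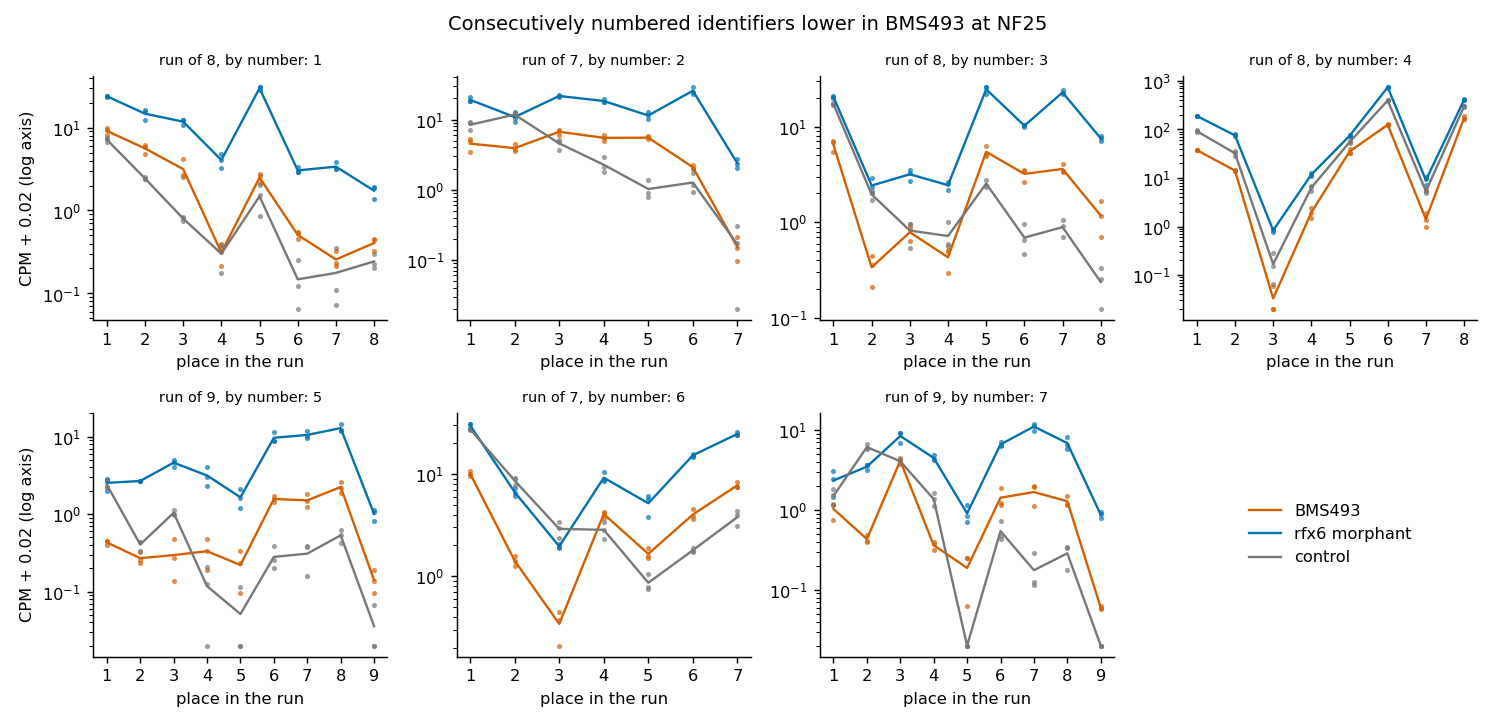
Level at NF25 along the 7 runs of 7 or more consecutively numbered identifiers that were all at least 2-fold lower in BMS493 than in rfx6 morphants, by place in the run, as CPM + 0.02 on log axes, with points for libraries and lines through group means. Morphants are above BMS493 at every place by the choice of the runs, while control lies with morphants at the start of several runs and near or below BMS493 at their end.

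The same contrast at NF33 rests on other libraries and so measures the NF25 lists again. Between BMS493 and morphants at NF33, 13483 of 25732 identifiers were called (52.4%), with 6568 higher (25.5%) and 6915 lower (26.9%), of which 1276 (4.96%) were at least 2-fold higher and 1378 (5.36%) at least 2-fold lower. Of the 1124 higher identifiers of NF25, 1068 were tested at NF33. There 519 were again called higher (48.6%) and 122 lower (11.4%), where identifiers tested at both stages had 24.2% called higher and 28.5% lower. A change of at least 2-fold in the same direction was kept by 145 of them (13.6%, against 2.59%). The median log2 fold change was 0.35.

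Of the 1213 lower identifiers, 978 were tested at NF33 and 235 fell under its filter on low counts. Those tested were called lower in 438 cases (44.8%) and higher in 192 (19.6%), with 275 called and at least 2-fold lower (28.1%, against 5.16%) and 92 called and at least 2-fold higher (9.41%, against 2.59%). The largest changes differed by direction. Of the 133 tested identifiers that had been at least 8-fold lower at NF25, 49 were called lower at NF33 (36.8%, against 28.5% of all). Another 53 were called higher there (39.8%, against 24.2% of all identifiers tested at both stages). Among these calls, 43 were at least 2-fold lower (32.3%, against 5.16%) and 26 at least 2-fold higher (19.5%, against 2.59%). Of the 186 identifiers at least 8-fold lower at NF25, 53 were not tested at NF33. Of the 44 tested that had been at least 8-fold higher, 33 were called higher and 1 lower. Across the 23585 identifiers tested at both stages, the log2 fold changes of NF25 and NF33 had a Pearson r of 0.281 and a Spearman rho of 0.298, which is a description across identifiers that share libraries within a stage.

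**Figure D4:**
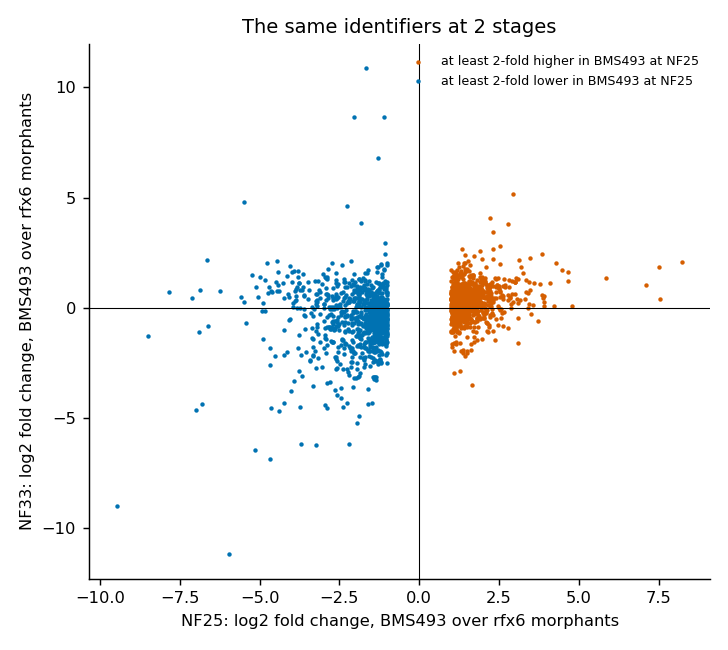
Log2 fold change of BMS493 over rfx6 morphants at NF33 (vertical) against that at NF25 (horizontal) for the 2046 identifiers called and at least 2-fold changed at NF25 that were also tested at NF33. The median at NF33 is 0.35 for the higher identifiers and -0.37 for the lower ones, and both lists spread to both sides of 0.

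The change of the contrast between stages was tested itself, in a fit of the 12 BMS493 and morphant libraries of both stages. The difference between treatments changed at 9644 of 26793 identifiers (36.0%), and became higher at 4081 (15.2%) and lower at 5563 (20.8%). Of the higher list of NF25, the difference moved down at 781 of 1124, and of the lower list it moved up at 679 of 1208. A list chosen for its size at NF25 moves back towards 0 in a second measurement also with no change, so these counts carry that choice. The batch tag of the labels is the stage itself, so batch and stage cannot be told apart here.

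The place of the lists in normal development was read from the 9 control libraries, which the contrast did not use. In controls, 24.6% of 26669 identifiers tested were called and at least 2-fold higher at NF38 than at NF25 and 15.7% at least 2-fold lower. Among those also tested in the contrast at NF25, the shares were 17.8% and 17.3%. Of the 1089 tested identifiers of the higher list, 522 rose at least 2-fold (47.9%) and 169 fell (15.5%). Of the 1050 tested of the lower list, 350 rose (33.3%) and 372 fell (35.4%). Within the narrower range of 1 to 10 CPM the shares were 46.4% rising and 15.1% falling for the higher list and 35.6% and 32.2% for the lower list, against 24.3% and 15.8% of all identifiers there. Between 10 and 100 CPM the shares were 27.4% rising and 30.8% falling for the higher list and 19.7% and 47.6% for the lower list, against 6.91% and 18.2% of all. Under 1 CPM they were 60.5% and 8.90% for the higher list and 43.1% and 25.3% for the lower list, against 43.8% and 12.5% of all. The balance of rising and falling identifiers in both lists thus varied with the level.

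The timing of change in controls was also read for the tails of both lists. Of the 44 tested identifiers at least 8-fold higher in BMS493, 38 rose at least 2-fold in controls between NF25 and NF33 (86.4%). Their median log2 change was 5.11. The share rising was 19.8% of all identifiers tested in controls and 14.1% of those also tested in the contrast at NF25. Among the latter with a mean under 1 CPM it was 36.2%. Of the 136 tested at least 8-fold lower, 54 rose and 41 fell in that interval (12.5% of all fell). Between NF33 and NF38, 13 of the 44 far higher identifiers rose at least 2-fold (29.5%) and 86 of the 136 far lower ones (63.2%), against 10.5% of all.

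A stage position was computed for each NF25 library from 6553 identifiers that rose and 4176 that fell at least 2-fold in controls from NF25 to NF38, on a scale with the NF25 control mean at 0 and the NF38 control mean at 100. BMS493 libraries averaged 6.07 ± 0.39, morphants -0.29 ± 0.16 and controls 0 ± 0.11 (SD, n = 3 each). BMS493 and morphant libraries did not overlap and differed by 6.36 (exact permutation test, two-sided, p = 0.1, the smallest that 3 against 3 libraries can give). With identifiers that changed between NF25 and NF33 instead, and the NF33 control mean set to 100, the difference was 10.7. NF33 control libraries lay at 68.6 to 69.2 on the main scale. The 2 differences are thus on scales of unlike length and their sizes cannot be compared directly. The value near 0 in morphants came from parts of opposite sign. On rising identifiers alone the position was 8.29 ± 0.89 in BMS493, 4.40 ± 0.32 in morphants and 0 ± 0.30 in controls. On falling identifiers it was 3.29 ± 0.27 in BMS493, -6.17 ± 0.10 in morphants and 0 ± 0.22 in controls. On falling identifiers BMS493 thus lay ahead of the control mean and morphants behind it, while on rising ones both lay ahead. A shift in the scaling of a library moves these parts in opposite directions. Other scalings were run only on the net position, so the share of scaling in the parts was not tested. The NF25 controls that set the 0 of the scale also took part in the choice of these identifiers. Such a choice by itself moves other NF25 libraries ahead of 0, so positions ahead of control carry it. The difference between BMS493 and morphants does not rest on where the 0 lies. The differences of 3.89 on rising and 9.45 on falling identifiers each had an exact two-sided p of 0.1.

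**Figure D5:**
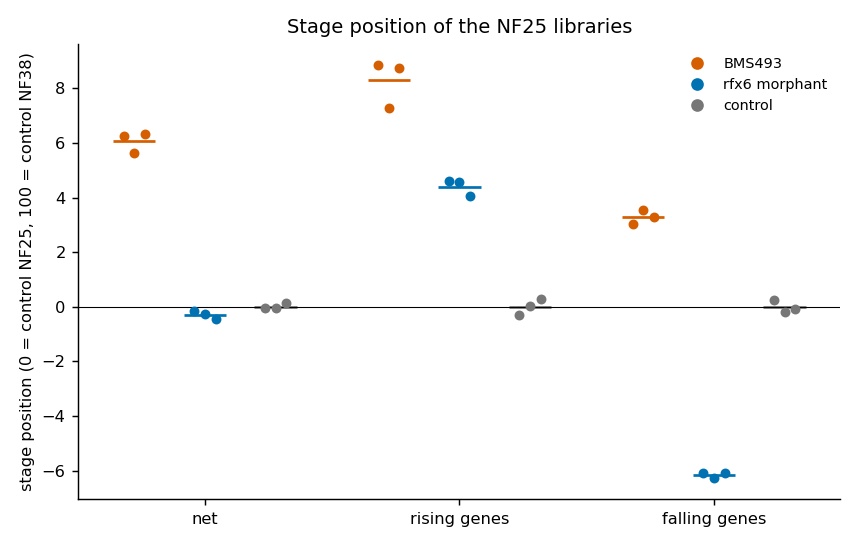
Stage position of the NF25 libraries of BMS493, rfx6 morphant and control explants, on a scale with the NF25 control mean at 0 and the NF38 control mean at 100, for all stage-dependent identifiers (net) and for rising and falling ones alone. Points are libraries and lines are group means, and on falling identifiers BMS493 lies at 3.29 and morphants at -6.17.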

How the data were processed

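RNA of foregut mesoderm and endoderm explants was sequenced from TruSeq stranded mRNA libraries, per the labels' protocols. RSEM 1.3.0 and Bowtie2 are the tools listed in the submitters' processing notes, and no genome build is named there. The authors made and deposited 1 table of expected counts, the estimated count of reads per identifier that RSEM gives, and 1 table of TPM, each with 44478 identifiers and 24 libraries of 19433955 to 31005048 counts. TPM values deposited by the authors were used only in alternatives. The row that names no gene held 0% of counts and was dropped.

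Counts were rounded to whole numbers and tested with edgeR 4.0.16 in R 4.3.3 (TMM normalization, filterByExpr with a minimum count of 10 and a minimum total of 15, robust quasi-likelihood test), with Benjamini-Hochberg adjustment over all identifiers tested at a threshold of 0.05. Changes of at least 2-fold were counted separately. Levels per library of named identifiers, runs and sums are CPM scaled by TMM over all 24 libraries, and other levels are CPM scaled over the 6 libraries tested. Alternatives used DESeq2 1.42.0, limma 3.58.1, other scalings, filters and sets of libraries. The scripts were tested on simulated data. In each direction the named identifiers at NF25 are the one with the largest fold and the one with the largest difference in CPM among called, at least 2-fold changed identifiers whose groups do not overlap. For the change between stages they are the called identifier with the largest fitted change in each direction. The comparison and its lists were chosen with earlier results of these data known. Same-numbered libraries of the treatments had correlations of their deviations of 0.004 to 0.037 at NF25 and -0.013 to 0.032 at NF33, so no pairing was used. Counting intervals and floors cover counting error only.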

Additional observations from a re-analysis of the deposited data

Results flagged for a closer look

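The difference between BMS493 and rfx6 morphants changed between NF33 and NF25 at 9644 identifiers by the test of that change (edgeR's quasi-likelihood test, Benjamini-Hochberg adjustment). The identifier with the largest fitted upward change, XBXL10_1g36402, had 0 CPM in all 3 BMS493 libraries and 1.28, 1.56 and 0.403 CPM in morphants at NF25. At NF33 it had 0.877, 1.02 and 0.861 CPM in BMS493 and 0 CPM in all 3 morphant libraries, so the treatment that held it changed between stages, and it was at 0 in all control libraries of NF25, NF33 and NF38 (adjusted p of the change = 2.83e-12, edgeR). No count of it was in morphants at NF38. The identifier with the largest fitted downward change, XBXL10_1g29841, had 4 counts over the BMS493 libraries and 0 over the morphant libraries at NF25, which is too few for a direction there. At NF33 it had 0.062 ± 0.022 CPM in BMS493 and 2.55 CPM in morphants (adjusted p of the change = 1.52e-04, edgeR). Fitted changes of both rest on groups without counts and give no size.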

How the results depend on the processing

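No alternative turned the direction of a named identifier or of the stage position difference. The split between higher and lower calls at NF25, near balance, did turn. Only limma on TPM moved the numbers of calls, at any size or at least 2-fold, by over 1.5 times. It tests fewer identifiers, and the cause was not tested further. At NF25 it called 6452 identifiers with log2(TPM + 1), of which 3445 were higher and 3007 lower, with 365 and 547 at least 2-fold. With log2(TPM + 0.1) it called 6381, of which 3411 were higher and 2970 lower, with 691 and 741 at least 2-fold. At NF33 it called 3514 higher and 6139 lower, with 403 and 642 at least 2-fold, and with the smaller pseudocount 3484 and 6114, with 719 at least 2-fold higher. For the change between stages it called 2429 higher and 5371 lower, with 630 and 896 at least 2-fold, and with the smaller pseudocount 2088 and 5428, with 842 at least 2-fold higher.

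The excess of lower calls among large changes held in every setting run, at 31 against 6 identifiers past 8-fold with log2(TPM + 1) 392 against 144 without the filter, and 286 against 141 in a fit of all 24 libraries. Total library size turned the NF25 split to 58.4% higher (5787 higher and 4129 lower), against 49.4%, with 1272 higher and 1135 lower at least 2-fold, and shifted the median of the change between stages to -0.11, where limma gave -0.12 and -0.15. The replicate block called 10691 identifiers at NF25, with 1124 higher and 1210 lower at least 2-fold, and moved no count of calls by over 1.5 times. Leaving out 1 library at a time gave 9168 to 10677 calls at NF25, 12214 to 12855 at NF33 and 8844 to 10012 for the change between stages. The stage position difference was 6.23 to 6.64 when single libraries were left out. It was 10.7 with identifiers of NF25 to NF33, on a shorter scale that ends at the NF33 controls. Alternatives chosen after seeing the data gave 10520 to 10547 calls at NF25 with each library as the TMM reference, 10551 without identifiers of identical counts, and 7648 without the 2 libraries highest in the abundant pair. Relative transcript length could be had for 40.1% of the 2-fold identifiers, so a check on length is void. Differences of identifiers under 1 CPM rest on few counts per library.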
